A study of Mus musculus with 24 samples.

Results

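The genes described here encode the machinery that builds, breaks down and regulates glycogen in the mouse left ventricle. They are Ugp2, Gyg, Gys1, Gbe1, Pygm, Pygb, Ppp1r3a, Ppp1r3c and Stbd1, 9 of the 28235 gene names that could be tested, and they were chosen by name as a pathway. The arrays held 12 probes for them, 2 each for Ugp2, Gyg and Gys1 and 1 for each of the others. All 12 passed the filter on dim probes and none was saturated.

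The 4 groups held 6 male mice each, 1 array per mouse. CON VEH mice were controls that received citrate buffer, and CON STZ mice were controls that received streptozotocin, a toxin of the pancreatic beta cell, at a daily dose of 55 mg per kg for 5 days in a row. The groups mG4H VEH and mG4H STZ received the same injections and carried a transgene for GLUT4, the insulin-responsive glucose transporter, that is inducible and restricted to cardiomyocytes. The transgene was switched on 2 weeks after STZ and for 2 weeks. Mouse age, the promoter and inducer of the transgene, and whether CON mice received the inducer are not given in the sources used here. Blood glucose at 4 weeks, listed without a unit, was 117 to 164 in CON VEH, 131 to 152 in mG4H VEH, 600 to 601 in CON STZ and 500 to 601 in mG4H STZ. The labels repeat 601 in both STZ groups, and the sources used here do not say whether it is an upper limit of measurement. Some mice were siblings, while the tests treated all mice as independent. The p-values therefore take no account of relatedness.

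Glycogen is the branched glucose polymer that heart muscle keeps as a reserve of fuel. UDP-glucose made by UGP2 is the substrate, glycogenin (Gyg) primes the chain, glycogen synthase (Gys1) lengthens it and the branching enzyme (Gbe1) adds branch points. Glycogen phosphorylase, in a muscle form (Pygm) and a brain form (Pygb) that are both present in heart, releases glucose 1-phosphate. Targeting subunits such as Ppp1r3a and Ppp1r3c bring protein phosphatase 1 to the glycogen particle, where it activates the synthase and inactivates the phosphorylase. Stbd1 binds glycogen and is linked to its delivery to lysosomes.

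A contrast that averages the STZ effects in CON and mG4H was added after the values had been seen. In it Pygb RNA was 1.35-fold higher and Ppp1r3c RNA 1.50-fold lower in STZ hearts than in vehicle hearts. These were 2 calls among 9 genes, beside 10.3% of all genes called. Both calls lay close to the threshold. Both were lost under median scaling, without slide 4 and with body weight as a covariate, and each under further alternatives. Calls over all 28235 genes went from 2908 to 391, 2172 and 339 in these settings, in that order. Within each genotype alone, and between genotypes, none of the 9 genes passed the threshold of an adjusted p of 0.05. In mG4H mice each of the 9 genes varied more between mice under STZ than under vehicle, by a median of 4.30 times in SD, where 75.1% of all genes varied more and their median was 1.46 times. The members' median was 1.94 under median scaling, and 8 of 9 varied more under quantile normalization. Some related genes outside the 9 varied more under STZ as well. A group of 3 STZ mice had high Gys1, Pygb and Ppp1r3a together.

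The probes read by these results were the single Pygb probe and the single Ppp1r3c probe, and they are shown because each gene's call rests on 1 probe of 60 bases. The Pygb probe lies at chr2:150656541-150656600 on the plus strand and the Ppp1r3c probe at chr19:36806457-36806516 on the minus strand of the mm9 build, per the array files. Their sequences are given 5′ to 3′ in lower case.
Pygb: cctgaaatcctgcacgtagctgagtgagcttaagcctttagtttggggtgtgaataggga
Ppp1r3c: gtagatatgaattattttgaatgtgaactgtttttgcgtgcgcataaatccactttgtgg
The 2 Gyg probes are shown for another reason: they start 15 bases apart, at chr3:20022033-20022092 and chr3:20022018-20022077 on the minus strand of mm9, and share 45 bases, in capitals, so they are close to 1 measurement.
Gyg, brighter probe: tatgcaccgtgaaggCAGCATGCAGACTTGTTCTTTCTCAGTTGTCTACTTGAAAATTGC
Gyg, second probe: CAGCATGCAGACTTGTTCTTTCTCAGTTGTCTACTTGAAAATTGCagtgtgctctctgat
The probe pairs of Gys1 and Ugp2 share no base and start 632 and 694 bases apart. No exon or untranslated region was assigned to a probe, because no genome annotation of mm9 was used here.

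Levels are log2 processed signal minus the log2 of the array's 75th percentile, so 0 is the brightness of the array's 75th percentile spot. The brighter probe stands for its gene, and levels of different probes are not compared. The 75th percentile signal ranged over 370 to 583, and the software marked 58.5% to 76.3% of an array's spots as well above background. The 4 groups were spread over slides 1, 2 and 3. Slide 4 was scanned on another day and carried vehicle mice alone, the third replicates of both genotypes. The 8 ventricular cardiomyocyte markers were all measured and none was called in any contrast. Of 9 skeletal muscle markers 6 were measured, and Ckm, Mybpc2 and Pvalb were well above background on all 24 arrays, while the myosins Myh4 and Myh1 were so on none. Ckm, the muscle creatine kinase that heart muscle also expresses, fell with STZ in CON by 0.47 ± 0.10 on the log2 scale (limma, adjusted p = 0.00952). Slc2a4, the mouse gene for GLUT4, averaged 6.73 in CON VEH, 6.16 in CON STZ, 6.54 in mG4H VEH and 6.36 in mG4H STZ. It fell with STZ in CON by 0.58 ± 0.16 on the log2 scale (limma, adjusted p = 0.0436), and mG4H against CON differed by -0.20 ± 0.16 under vehicle and 0.20 ± 0.16 under STZ without passing. The sources used here do not give the transgene's sequence, so this level does not check the label, and mG4H stands for mice labelled so.

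Ppp1r3c, which encodes the phosphatase subunit also called PTG, showed the largest STZ differences among the 9 genes. Its level in CON VEH ran from 3.89 to 4.36 with a median of 4.17, and in CON STZ from 3.41 to 3.96 with a median of 3.71. In mG4H VEH it ran from 4.35 to 4.59 with a median of 4.50, and in mG4H STZ from 2.16 to 4.47 with a median of 4.09. In each genotype the groups overlapped through few mice: only CON STZ replicate 5, at 3.96, lay above the lowest CON VEH mouse, and only mG4H STZ replicate 1, at 4.47, lay above the lowest mG4H VEH mouse. The log2 difference was -0.50 ± 0.25 (SE) in CON (limma, adjusted p = 0.365) and -0.67 ± 0.25 in mG4H (adjusted p = 0.207, unadjusted p = 0.0121). Averaged over both, Ppp1r3c fell by 0.59 ± 0.17 on the log2 scale (adjusted p = 0.0330). The means were 4.34 for vehicle and 3.75 for STZ. This call was lost without CON VEH replicate 5 or 6, mG4H VEH replicate 2 or 4, or CON STZ replicate 1 or 2, each left out alone (limma, adjusted p from 0.0506 to 0.0597).

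The mG4H STZ mouse with the lowest Ppp1r3c, replicate 3 at 2.16, lay far below the next mouse of its group at 3.87. Without it the averaged difference was -0.42 (limma, adjusted p = 0.00129) and that in mG4H was -0.34 (adjusted p = 0.284). The difference in CON stayed at -0.50 but passed the threshold (adjusted p = 0.00584), since the fit pools the spread of all groups. This mouse also stood apart from its group in cell markers. Its summed red blood cell markers were 31.1 times the 75th percentile signal, against 314 to 1017 in the other 5 mice of the group, and its macrophage markers 67.2 against 30.2 to 42.85. In CON STZ the macrophage sum ran from 30.9 to 68.8, so this mouse lay inside that range. Of the atrial markers its Nppa, which encodes atrial natriuretic peptide, was 515 against 56.2 to 139, while the sum of Myl7, Myl4 and Sln was 5.76, inside the 4.01 to 20.8 of the others. Their part in its Ppp1r3c level was not tested.

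Pygb, the brain form of glycogen phosphorylase, ran the other way. Its level in CON VEH was 3.75 to 4.28 with a median of 3.95, and in CON STZ 4.08 to 4.63 with a median of 4.24. In mG4H VEH it was 3.85 to 4.04 with a median of 3.92, and in mG4H STZ 3.75 to 5.37 with a median of 4.33. Among CON mice, 5 of 6 vehicle values lay below every STZ value, and replicate 6 at 4.28 lay within the STZ range. Among mG4H mice, 5 of 6 STZ values lay above every vehicle value, and replicate 2 at 3.75 lay below all of them. The log2 difference was 0.33 ± 0.18 in CON (limma, adjusted p = 0.433) and 0.54 ± 0.18 in mG4H (adjusted p = 0.169, unadjusted p = 0.00616). Averaged over both, Pygb rose by 0.43 ± 0.12 on the log2 scale, from a mean of 3.95 to 4.38 (adjusted p = 0.0283).

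The averaged call of Pygb depended on single mice. Without mG4H STZ replicate 3 it was 0.40 (limma, adjusted p = 0.0521), without CON STZ replicate 3 it was also 0.40 (adjusted p = 0.0514), and without CON VEH replicate 5 it was 0.41 (adjusted p = 0.0503). Without mG4H STZ replicate 2, the lowest Pygb value of its group, the difference within mG4H was 0.68 and passed the threshold (adjusted p = 0.0329). Without mG4H STZ replicates 3 and 5 together, the averaged difference was 0.28 (adjusted p = 0.0393) and that in mG4H was 0.23 (adjusted p = 0.899). With the signal scaled to the array's median, the averaged difference was 0.36 for Pygb (adjusted p = 0.550) and -0.66 for Ppp1r3c (adjusted p = 0.148), so neither was called. Without slide 4 the adjusted p was 0.0563 for Pygb and 0.0579 for Ppp1r3c, and with slide as a block that of Ppp1r3c was 0.0521. With body weight as a covariate both calls were also lost, at 0.42 (adjusted p = 0.356) and -0.36 (adjusted p = 0.747). Body weight, listed without a unit, moved with STZ: it was 25.5 to 36.4 in vehicle mice and 21.1 to 28.1 in STZ mice.

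**Figure D1:**
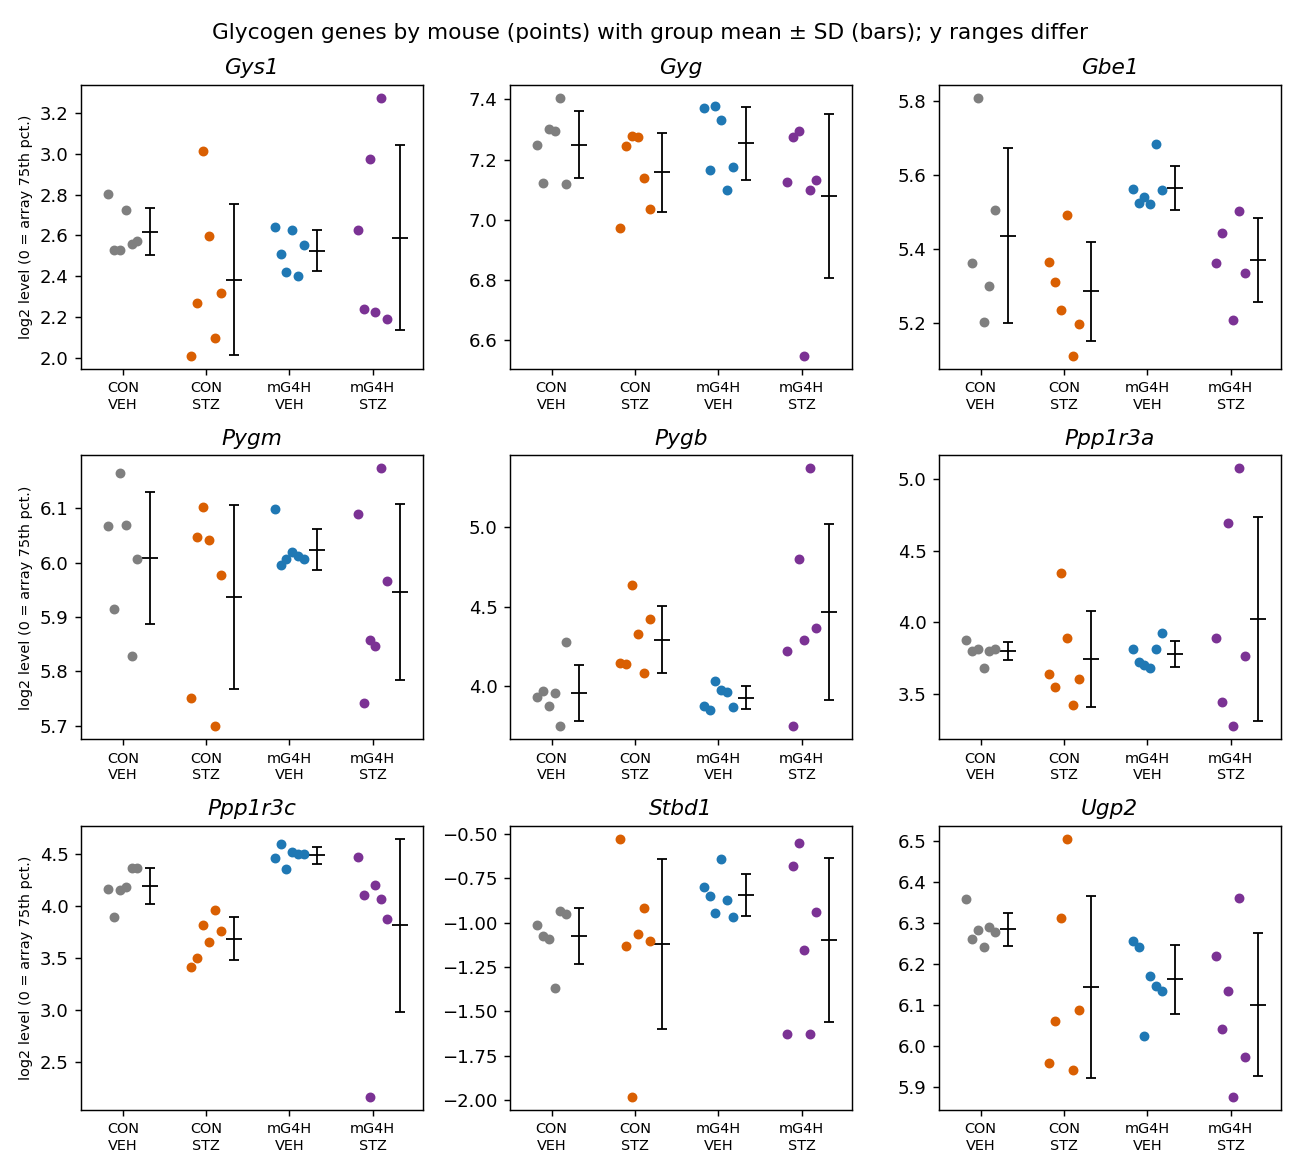
Level of each of the 9 glycogen genes in each mouse (points; y axis, log2 processed signal with 0 at the array's 75th percentile; x axis, the 4 groups), with the group mean and SD as bars; y ranges differ between panels. Ppp1r3c is lower and Pygb higher under STZ in most mice of both genotypes, and mG4H STZ replicate 3 lies far below the rest for Ppp1r3c at 2.16.

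Of the 9 genes, 2 were called in the averaged contrast, 1 higher and 1 lower, beside 10.3% of all 28235 genes (4.51% higher and 5.79% lower). The members' median log2 difference was -0.10 and that of all genes 0.05. Among the 11 cell marker lists, 5 held a called gene in the same contrast. These were Nppa (2.18, 1 of 4 atrial markers), Cd14 (0.38, 1 of 6 macrophage markers), Pdgfra (0.27, 1 of 6 fibroblast markers) and Ttr (1.19, 1 of 2 hepatocyte markers) on the higher side and Ckm (-0.35, 1 of 6 skeletal muscle markers) on the lower side. None was called of the 8 ventricular, 5 endothelial, 4 smooth muscle, 5 adipocyte, 3 red blood cell and 5 neuron and glia markers, although 4 of the 5 endothelial markers had an unadjusted p under 0.05, 3 of them lower. Such p-values were common over all genes: Gbe1, at an unadjusted p of 0.0202 (limma), ranked 4637 of 28235 in this contrast. The log2 differences of all 6 fibroblast and all 6 macrophage markers were above 0. Those of 7 of the 8 ventricular markers were below 0, and their list's median was -0.10, like that of the members. The summed macrophage level was 30.2 to 68.8 times the 75th percentile signal under STZ and 34.1 to 43.9 under vehicle, and the summed fibroblast level 277 to 418 and 246 to 351. Nppa alone was 56.2 to 515 under STZ and 16.2 to 47.6 under vehicle, while the other 3 atrial markers had differences below 0 and a sum of 2.99 to 20.8 under STZ and 4.10 to 73.2 under vehicle. The part of these cells in the calls was not tested, and in bulk tissue fewer cells of a type cannot be told apart from less RNA per cell. Within slides 1, 2 and 3 the averaged difference, which has no test there, was 0.58, 0.14 and 0.60 for Pygb and -0.55, -0.31 and -0.90 for Ppp1r3c.

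The enzymes of synthesis showed smaller differences with STZ. Gbe1, the branching enzyme, was lower in all measured mG4H STZ mice (5.21 to 5.50, median 5.36) than in every mG4H VEH mouse (5.52 to 5.68, median 5.55). Its log2 difference of -0.19 ± 0.10 did not pass the threshold (limma, adjusted p = 0.377), and 1.22% of all genes were lower without overlap in the same contrast. In CON, where the groups overlapped (5.11 to 5.49 under STZ, 5.204 to 5.81 under vehicle), the difference was -0.15 ± 0.10 (adjusted p = 0.595). The highest CON VEH value, 5.81, was that of replicate 3 on slide 4. Within slides 1, 2 and 3 the CON difference, which has no test there, was -0.16, -0.02 and -0.08. The Gbe1 spot was marked as an outlier and left out on CON VEH replicate 1 and mG4H STZ replicate 3, so both groups have 5 values. Averaged over genotypes, the difference was -0.17 ± 0.07 (adjusted p = 0.123), and among the alternatives it passed only under quantile normalization (-0.20, adjusted p = 0.0474).

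Gys1, glycogen synthase, had overlapping levels in the 4 groups, with a mean of 2.62 ± 0.12 (SD, n = 6) in CON VEH, 2.38 ± 0.37 in CON STZ, 2.53 ± 0.10 in mG4H VEH and 2.59 ± 0.45 in mG4H STZ. Of the CON STZ mice, 4 of 6 lay below every CON VEH mouse, and replicate 3 at 3.01 lay above them all. In mG4H the 2.24, 2.22 and 2.19 of STZ replicates 2, 4 and 6 were under the lowest mG4H VEH mouse at 2.40, while replicates 3 and 5 reached 2.97 and 3.27, above its highest mouse at 2.64. The second Gys1 probe gave log2 differences of -0.15 in CON and 0.14 in mG4H, against -0.24 and 0.06 for the brighter probe, and none passed.

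Gyg, which primes the glycogen particle, ranged from 7.12 to 7.40 in CON VEH, 6.97 to 7.28 in CON STZ, 7.10 to 7.38 in mG4H VEH and 6.55 to 7.29 in mG4H STZ. The lowest value, 6.55, was that of mG4H STZ replicate 4, and the other 23 mice lay at 6.97 to 7.40. The second Gyg probe, which shares 45 of its 60 bases, ran from 6.88 to 7.16 in that group, with its lowest value in replicate 6. The log2 difference with STZ was -0.09 in CON and -0.17 in mG4H on the brighter probe.

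Ugp2, which supplies UDP-glucose, had a tight CON VEH range of 6.24 to 6.36 and a wider CON STZ range of 5.94 to 6.50. Of the CON STZ mice, 4 of 6 lay below every CON VEH mouse. In mG4H the ranges were 6.03 to 6.26 under vehicle and 5.88 to 6.36 under STZ. The log2 difference was -0.14 ± 0.09 in CON (limma, adjusted p = 0.614) and -0.06 ± 0.09 in mG4H (adjusted p = 0.856). The second Ugp2 probe gave -0.26 and -0.13, also short of the threshold. On that probe all 6 mG4H VEH mice (4.22 to 4.40) lay below all 6 CON VEH mice (4.42 to 4.65), with a log2 difference of -0.20 ± 0.12 that did not pass (limma over all probes, adjusted p = 1). In the same contrast 0.62% of all genes, each read on its brightest probe, were lower without overlap. On the brighter Ugp2 probe these groups overlapped.

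Pygm, the muscle phosphorylase, differed by -0.07 ± 0.09 on the log2 scale with STZ in CON and by -0.08 ± 0.09 in mG4H (limma, adjusted p = 0.909 and 0.782). The 95% intervals were -0.25 to 0.11 and -0.26 to 0.10. Its levels were 5.83 to 6.16 in CON VEH, 5.70 to 6.10 in CON STZ, 6.00 to 6.10 in mG4H VEH and 5.74 to 6.17 in mG4H STZ. The muscle and brain phosphorylase genes thus had differences of opposite sign, and the difference between them was not tested.

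Ppp1r3a, the striated muscle targeting subunit, was nearly constant in vehicle mice, at 3.68 to 3.87 in CON and 3.68 to 3.92 in mG4H. Under STZ it ran from 3.42 to 4.35 in CON and from 3.27 to 5.08 in mG4H. In both STZ groups values lay on either side of the vehicle range, and the log2 differences were -0.06 ± 0.22 in CON and 0.25 ± 0.22 in mG4H (limma, adjusted p = 0.992 and 0.716). Stbd1, the glycogen adaptor, ran from -1.37 to -0.93 in CON VEH, -1.98 to -0.53 in CON STZ, -0.97 to -0.64 in mG4H VEH and -1.63 to -0.55 in mG4H STZ. Its log2 difference with STZ was -0.05 ± 0.20 in CON and -0.25 ± 0.20 in mG4H (limma, adjusted p = 0.992 and 0.651).

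**Figure D2:**
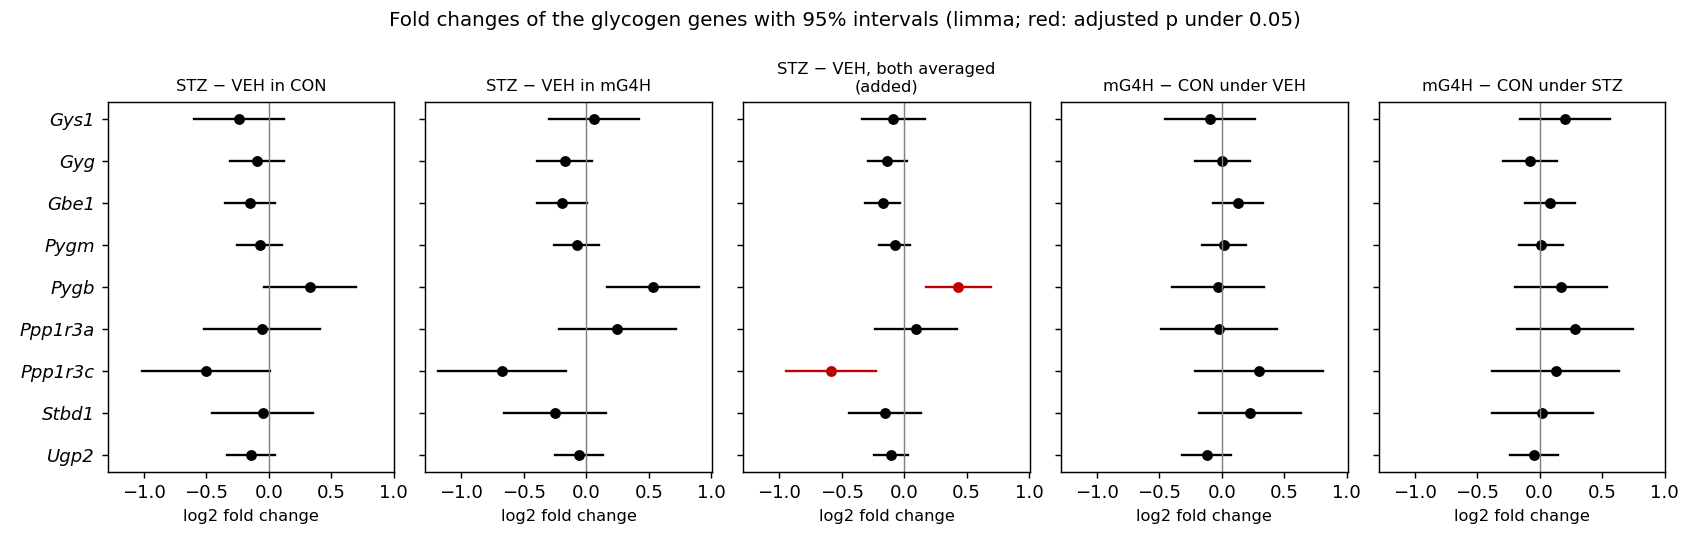
Log2 fold change (points; x axis) of each gene (y axis) with its 95% interval (lines) in 4 of the planned contrasts and in the added average over both genotypes. Intervals clear of 0 with an adjusted p under 0.05, in red, appear only for Pygb (0.43) and Ppp1r3c (-0.59) in the average.

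Counted over the planned contrasts, limma called 0 of 9 genes for STZ in CON, beside 3.96% of all genes, and 0 of 9 had an unadjusted p under 0.05. For STZ in mG4H it called 0 of 9, beside 0.266%, and 2 of 9, Pygb and Ppp1r3c, had an unadjusted p under 0.05. Low p-values were common over all genes there: Gbe1, at an unadjusted p of 0.0576 (limma), ranked 4316 of 28235. STZ gave lower values for 8 of 9 genes in CON and for 6 of 9 in mG4H. The members' median was -0.09 in CON, where that of all genes was 0.03, and -0.08 in mG4H, where it was 0.06.

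The transgene comparisons gave 0 of 9 calls under vehicle, beside 0.0815% of all genes, and 0 of 9 under STZ, beside 0.0106%, with no unadjusted p under 0.05 in either. Under vehicle the log2 differences of mG4H against CON ran from -0.12 for Ugp2 to 0.30 ± 0.25 for Ppp1r3c, whose 95% interval was -0.21 to 0.81. For Ppp1r3c, 5 of 6 mG4H VEH mice lay above every CON VEH mouse, and replicate 3 at 4.35 lay just inside the CON range. Under STZ the differences ran from -0.08 for Gyg to 0.28 ± 0.22 for Ppp1r3a, with an interval of -0.18 to 0.75. The difference between the STZ effects in mG4H and CON was called for 0 of 9 genes and 0% of all genes, with no unadjusted p under 0.05 among the members. It was -0.17 ± 0.35 for Ppp1r3c (interval -0.89 to 0.55) and 0.20 ± 0.25 for Pygb (interval -0.31 to 0.72). These intervals use a spread pooled over the 4 groups, STZ mice included. For Ppp1r3c the SD was 0.17 in CON VEH, 0.08 in mG4H VEH, 0.20 in CON STZ and 0.83 in mG4H STZ. Fitted with the vehicle groups alone, mG4H against CON still gave 0 of 9 calls, beside 100 of all 28235 genes. A difference that did not pass is not shown to be absent.

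The spread between mice was described by the ratio of the SD under STZ to that under vehicle, a measure added after the values had been seen and given without a test. In mG4H the ratio was above 1 for 9 of 9 genes, from 1.88 for Gbe1 to 10.4 for Ppp1r3c, with 7.77 for Ppp1r3a and 7.55 for Pygb. In CON it was above 1 for 8 of 9 genes, beside 67.7% of all genes. It ran from 0.57 for Gbe1 to 5.48 for Ugp2, with 3.15 for Gys1 and 3.03 for Stbd1. Its median of 1.40 was near the 1.21 of all genes. The median over all genes was not matched for level. A wider spread in mG4H was not confined to the 9 genes. Among related genes the SD under STZ and vehicle was 0.51 and 0.06 for Ppp1r3d and 0.71 and 0.11 for Gabarapl1. It went the other way for some, with 0.07 and 0.12 for Pgm5 and 0.13 and 0.18 for Pygl.

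The ratio in mG4H was lower without the mice that stood apart. Without mG4H STZ replicate 3 the median was 3.56 and that of Ppp1r3c 2.74. Without replicates 3 and 5 together the median was 3.11, beside 1.099 for all genes, and all 9 ratios stayed above 1, the lowest at 1.63. Under median scaling it was 1.94 beside 1.27 for all genes, again with 9 of 9 above 1, and under quantile normalization 3.54 beside 1.44. In CON 6 of 9 were above 1 under each of these scalings. The CON medians were 1.19 beside 1.14 for all genes under median scaling, and 1.35 beside 1.198 under quantile normalization.

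**Figure D3:**
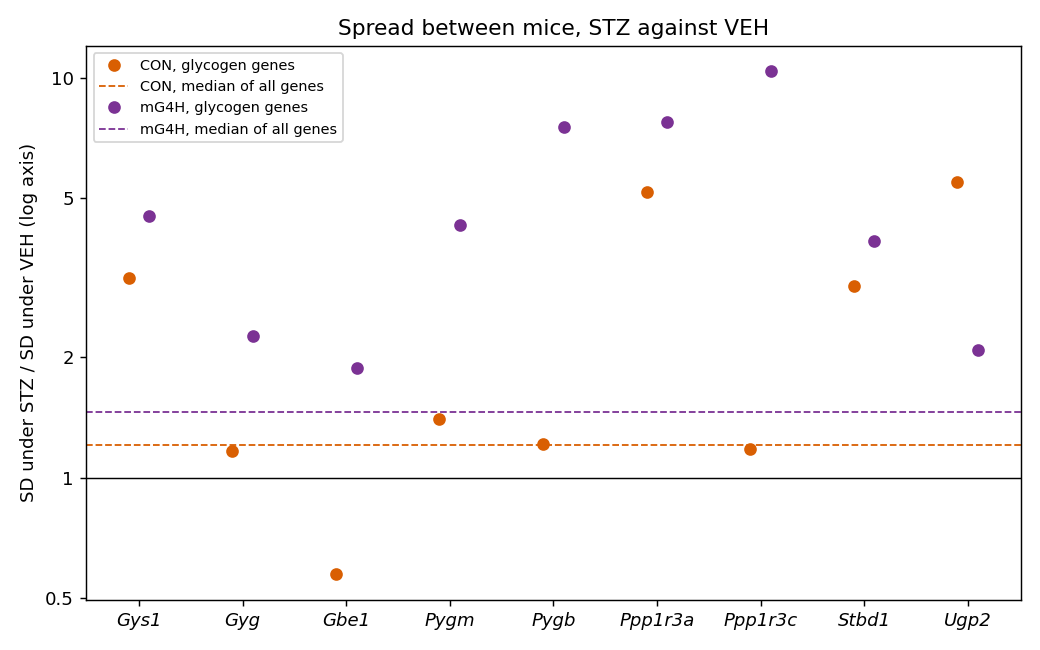
Ratio of the SD between mice under STZ to that under vehicle (y axis, log scale) for each glycogen gene (x axis) in CON and mG4H, with the median over all genes as dashed lines and equality as a solid line. In mG4H each of the 9 points lies above the dashed line at 1.46, while in CON they range from 0.57 to 5.48.

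Some pairs of these genes varied together in STZ mice. In the 12 STZ mice, after removing each group's mean, Gys1 and Ppp1r3a correlated with Pearson's r = 0.92 and Spearman's rho = 0.78 (100000 permutations, adjusted p = 0.00144 and 0.0666 over 72 correlations). Pygb and Ppp1r3a correlated with r = 0.89 and rho = 0.79 (permutation test, adjusted p = 0.00504 and 0.0666), and Gys1 and Pygb with r = 0.83 and rho = 0.62 (adjusted p = 0.0101 and 0.233). In the 12 vehicle mice the same pairs had r = 0.02, -0.14 and -0.12, and 0.50, 0.51 and 0.33 with slide means removed. The adjusted p of Pearson's r was under 0.05 for 5 of 36 pairs in STZ mice and 0 of 36 in vehicle mice, and that of Spearman's rho was under 0.05 for none of the 72 correlations.

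These relations rested largely on 3 mice, CON STZ replicate 3 and mG4H STZ replicates 3 and 5. Their Ppp1r3a was 4.35, 4.69 and 5.08, where the other 21 mice stayed at or below 3.92. Without the 2 mice farthest from the median of the first gene named, r was 0.85 for Gys1 and Ppp1r3a, 0.84 for Pygb and Ppp1r3a and 0.65 for Gys1 and Pygb. Over the other 9 STZ mice it was 0.66, 0.38 and 0.31. With slide means removed r was 0.92, 0.90 and 0.83, and it stayed between 0.70 and 0.96 for the 3 pairs under the other scalings. Their arrays stood apart over all genes too: limma's array weight, which is low where an array's values lie far from the fitted group means, was 0.289, 0.241 and 0.229 for them and at least 0.615 for each of the other 21. The part of this in the correlations was not tested. The 3 mice did not share a slide: 2 were on slide 3 and 1 on slide 1. Their 75th percentile signals were 372, 370 and 499, against 372 to 583 in the other STZ mice. Their summed ventricular cardiomyocyte markers were 4073, 3938 and 3277, against 2910 to 3626.

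The other 2 pairs with an adjusted p under 0.05 changed with the scaling. Gys1 and Ugp2 had r = 0.82 and rho = 0.85 (permutation test, adjusted p = 0.0291 and 0.0554), but r = 0.31 under quantile normalization. Pygm and Stbd1 had r = -0.79 and rho = -0.80 (permutation test, adjusted p = 0.0291 and 0.0666), but r = 0.32 under median scaling. Ppp1r3c did not follow the others, with r = -0.23 to Gys1, -0.27 to Pygb and -0.40 to Ppp1r3a.

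**Figure D4:**
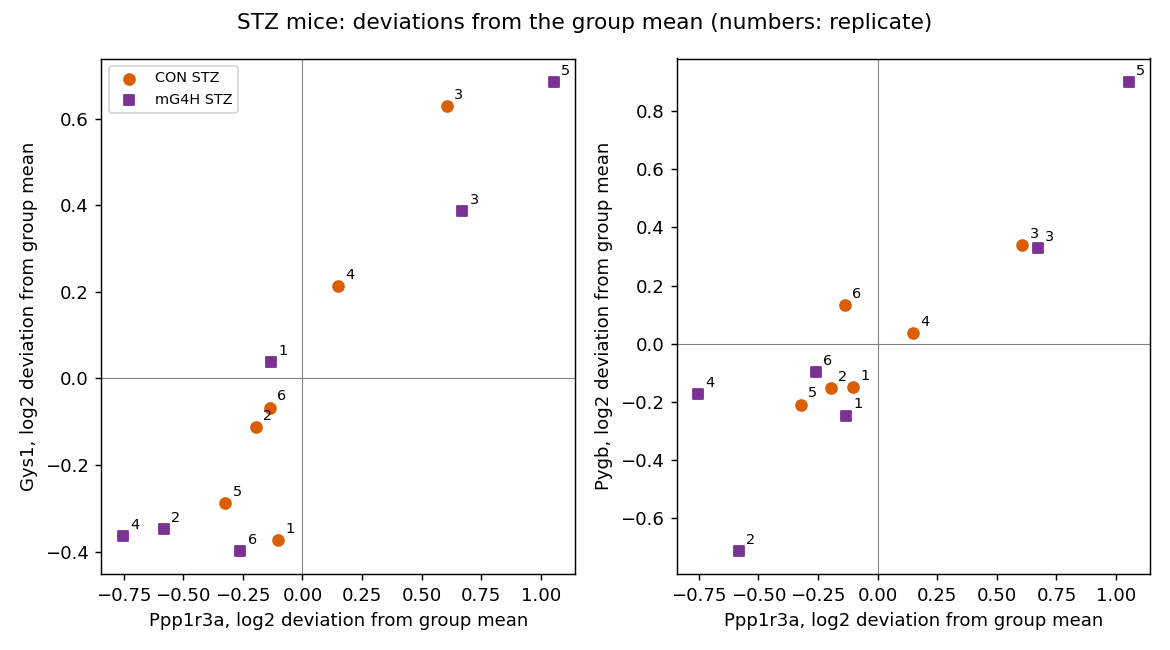
Deviation of Gys1 (left) and Pygb (right) from the group mean (y axes, log2) against that of Ppp1r3a (x axes, log2) in the 12 STZ mice, numbered by replicate. CON STZ replicate 3 and mG4H STZ replicates 3 and 5 lie at the upper right of both panels, and r is 0.92 on the left and 0.89 on the right.

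Across all 24 arrays, with slide means removed, the genes whose pattern was most like that of Pygb were Sqstm1, Fam134b and Tbc1d17, at r = 0.97, 0.96 and 0.96. Those most like Ppp1r3c were Tnks2, Magix and Mtf1, at r = 0.92, 0.91 and 0.91. These are the highest r among tested genes that have a gene symbol and no missing value. They describe likeness only.

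The list of 44 related genes covered further enzymes, the phosphorylase kinase subunits, other phosphatase 1 subunits, glycogen kinases and glucose entry. Of these, 42 were measured. The name Gyg1 is not on the array, and Ppp1r3e did not pass the filter. For STZ in CON 2 of 42 fell and 0 rose, beside 2.3% of all genes called lower. Hk2, the insulin-responsive hexokinase, fell by 0.76 ± 0.17 on the log2 scale (limma, adjusted p = 0.0103), and its levels of 4.76 to 5.70 in CON STZ lay below the 5.98 to 6.24 of CON VEH without overlap, as did those of 2.67% of all genes. Epm2a, which encodes the glycogen phosphatase laforin, fell by 0.50 ± 0.13 (adjusted p = 0.0359) from a mean of -1.62 to -2.11. The Epm2a call was lost under several alternatives, among them quantile normalization (adjusted p = 0.103).

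In the remaining planned contrasts 0 of 42 were called, with 10, 6, 3 and 2 genes at an unadjusted p under 0.05 for STZ in mG4H, the transgene under vehicle, the transgene under STZ and the difference of STZ effects. The share of all genes under that p was not counted, so these numbers cannot be read as an excess. The smallest p for STZ in mG4H belonged to Ppp1r3b, the liver-type phosphatase 1 subunit (-0.52 ± 0.12, adjusted p = 0.0722), and Ppp1r3g, another targeting subunit (0.89 ± 0.24, adjusted p = 0.102). For the transgene under vehicle, Ppp1r3g came first (-0.996 ± 0.24, adjusted p = 0.198) and then Ppp1r3b (0.39 ± 0.12, adjusted p = 0.702). Every mG4H VEH mouse (-5.09 to -4.18) lay below every CON VEH mouse (-3.77 to -3.18) for Ppp1r3g, a dim gene. In this contrast 0.62% of all genes were lower without overlap. For the transgene under STZ the smallest p belonged to Prkab1, a subunit of AMP-activated kinase (0.46, adjusted p = 0.288), and Phkg1, a catalytic subunit of phosphorylase kinase (0.42, adjusted p = 0.887). For the difference of STZ effects it was Prkab1 (0.56) and Epm2a (0.50), both with an adjusted p of 1.

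In the averaged contrast 4 of 42 related genes were called, 3 lower and 1 higher, beside 10.3% of all genes. The phosphatase 1 targeting subunits did not move as a family. Ppp1r3b fell by 0.44 ± 0.09 on the log2 scale (limma, adjusted p = 0.00241), the same direction as Ppp1r3c, while Ppp1r3g rose by 0.60 ± 0.17 (adjusted p = 0.0263) and Ppp1r3a, Ppp1r3d and Ppp1r3f differed by 0.10, -0.20 and 0.06 without passing. Hk2 fell by 0.59 ± 0.12 (adjusted p = 0.00262) and Phkb, the regulatory beta subunit of phosphorylase kinase, by 0.29 ± 0.08 (adjusted p = 0.0226). Of these 4, Ppp1r3g kept its sign under each scaling but was not called with median scaling (0.52), quantile normalization (0.50) or normexp correction (0.18). None of the 4 was called under median scaling, where 391 of 28235 genes were called.

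**Figure D5:**
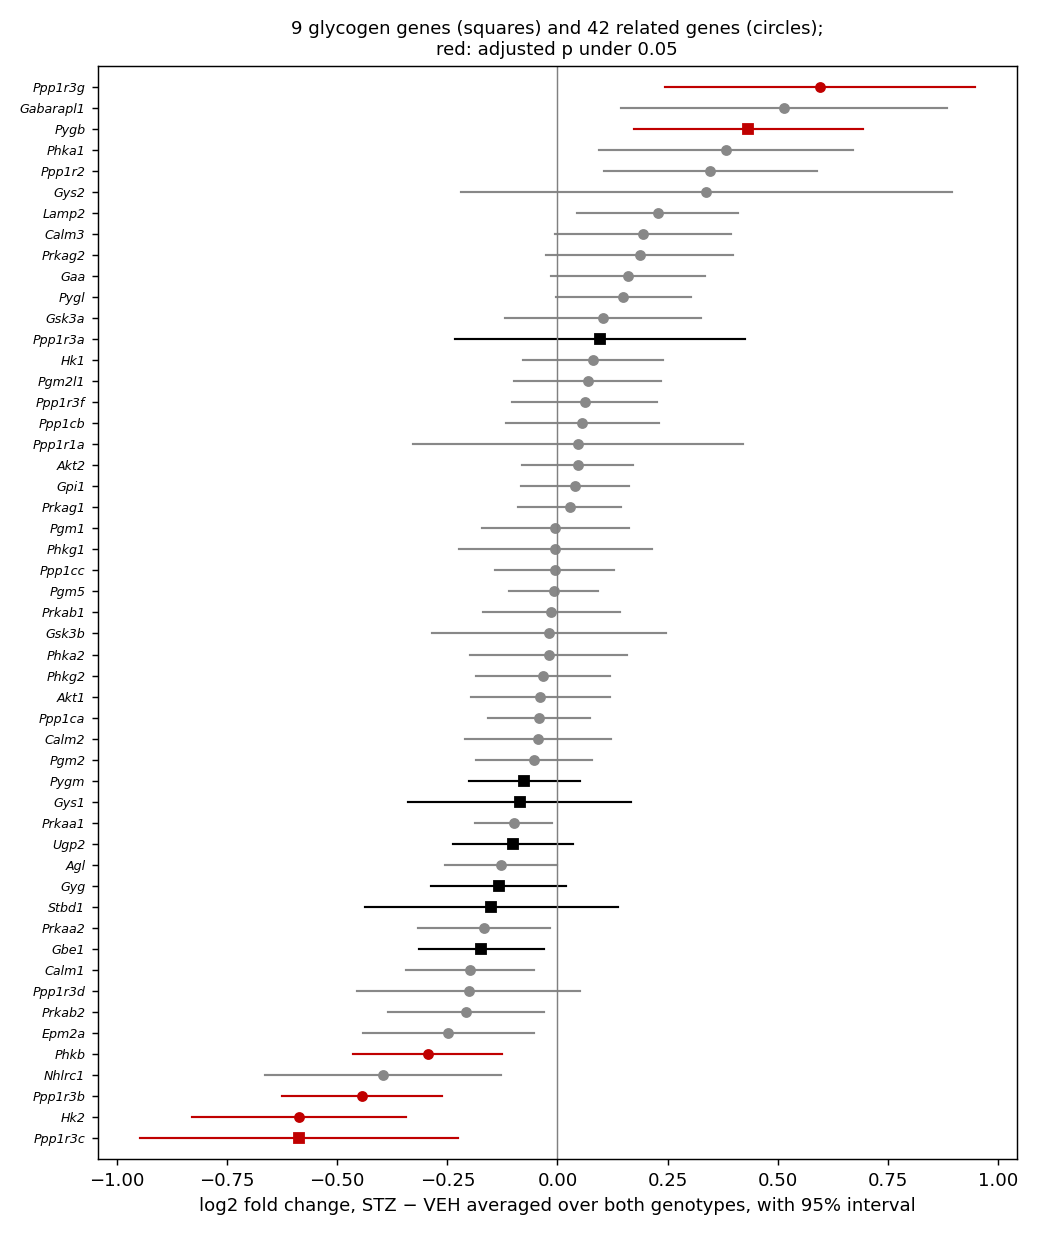
Log2 fold change of STZ against vehicle averaged over both genotypes (x axis) with 95% intervals (lines) for the 9 glycogen genes (squares) and the 42 related genes (circles), ordered by value on the y axis; red marks an adjusted p under 0.05. The red genes are Ppp1r3c, Hk2, Ppp1r3b and Phkb on the lower side and Pygb and Ppp1r3g on the higher side.

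The promoter windows of the 9 genes were read in RefSeq's table on GRCm38.p6, from 250 bases before to 50 bases after the start. All 9 matched, with 10 windows, since Ugp2 has 2. Both strands were searched for the FoxO letters TGTTTAC, the MEF2 letters TATTTATAG alone and with a C before them, the E-box CACGTG, the glucocorticoid receptor letters AGAACA, and the PPAR letters AGGTCA alone and as a direct repeat with 1 base between. The E-box was in the windows of Gyg and Ppp1r3c, beside 7.15% of 32851 windows, and both MEF2 forms were in that of Ppp1r3a, beside 0.451% and 0.164%. The other letters were in none of the 10 windows, beside 3.65%, 18.97%, 16.3% and 0.040% of all windows. A match describes the letters and not a bound site.

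The window of Ppp1r3c, the gene that fell, is printed with its E-box in capitals, at position -104 from the start site. The window lies at chr19:36736555-36736854 on the minus strand. That of Ppp1r3a, 1 of the 3 genes that were high together in the same STZ mice, is printed with the longer MEF2 form in capitals, at position -100. It lies at chr6:14755225-14755524 on the minus strand.
Ppp1r3c: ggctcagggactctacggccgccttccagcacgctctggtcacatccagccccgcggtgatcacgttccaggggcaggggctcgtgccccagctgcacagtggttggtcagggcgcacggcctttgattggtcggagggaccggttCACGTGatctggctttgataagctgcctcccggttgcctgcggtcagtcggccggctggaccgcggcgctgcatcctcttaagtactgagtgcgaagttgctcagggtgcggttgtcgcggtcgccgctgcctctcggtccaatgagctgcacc
Ppp1r3a: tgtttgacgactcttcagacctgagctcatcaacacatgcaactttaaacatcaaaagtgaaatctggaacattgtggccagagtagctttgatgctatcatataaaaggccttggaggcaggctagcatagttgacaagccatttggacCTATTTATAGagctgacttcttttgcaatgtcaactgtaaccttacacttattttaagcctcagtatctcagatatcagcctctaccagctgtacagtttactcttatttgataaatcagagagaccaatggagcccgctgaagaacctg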

How the data were processed

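Left ventricular RNA of 24 mice, 1 Cy3-labelled Agilent array each, was measured. The deposited value is the processed signal, an intensity that Feature Extraction 10.5.1.1 subtracted for background, per the file headers. The deposited raw and background intensities and the software's flags served in alternatives and filters. The submitters' processing notes name limma. Outlier-marked spots were left out and repeats averaged. A probe was kept when well above background on at least 6 of 24 arrays, giving 39766 probes, and the brightest stood for its gene name, giving 28235. Group means were fitted over all arrays with limma 3.58.1 (R 4.3.3), with Benjamini-Hochberg adjustment over all genes and a threshold of 0.05. The fit was tested on simulated data. The members, lists, rules and the contrasts were chosen with earlier results of these data known. The rule named all 9 members, up to 6 related genes past the threshold per contrast (otherwise the 2 smallest p), the 3 genes most alike each called member, and Slc2a4. The averaged contrast, and the likeness rule's use in it, were added later. Alternatives are given in the closing section. Tables were read in Python 3.11.15 with pandas 2.3.3, and plots were made with matplotlib 3.10.9.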

Additional observations from a re-analysis of the deposited data

Results flagged for a closer look

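Of 36 sets of mice checked, 9 genes in 4 groups, 5 held a mouse far from the others of its group by Dixon's criterion, and chance alone gives about 1 in 20. Ppp1r3c in mG4H STZ was lowest in replicate 3, at 2.16, with the next mouse at 3.87. Gyg in mG4H STZ was lowest in replicate 4, at 6.55, with the next at 7.10, and the overlapping second probe did not place that mouse lowest. Gbe1 in mG4H VEH was highest in replicate 5, at 5.68, with the next at 5.56. Pygm in mG4H VEH was highest in replicate 1, at 6.10, with the next at 6.02. Stbd1 in CON VEH was lowest in replicate 4, at -1.37, with the next at -1.09. None of the 9 genes passed the test of a difference between the STZ effects in the genotypes.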

How the results depend on the processing

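In the planned contrasts, the 45 log2 differences of the 9 genes were compared under 15 alternatives, 661 values in all. Of these, 659 stayed on the same side of the threshold and 2 passed it, both Ppp1r3c for STZ in CON, fitted with the groups compared alone (1 gene called, adjusted p = 0.0367) and with array weights (1 gene called, adjusted p = 0.0211). Uncalled values changed sign in 21 of the 661. Among 1080 values with a single array left out, 2 passed, and the count called ranged from 0 to 1 for STZ in CON and for STZ in mG4H and was 0 in the other planned contrasts. Without mG4H STZ replicates 3 and 5 together, 1 gene was called for STZ in CON.

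In the averaged contrast 2 genes were called, and the count was 0 with median scaling, without slide 4 and when body weight entered the model. Over all genes these settings called 391, 2172 and 339, in that order, against 2908 in the main fit. For the 9 genes the count was 1 with a slide block and 3 with quantile normalization. With single arrays left out it ranged from 0 to 2. It was 0 without CON VEH replicate 5, Pygb alone was called without CON VEH replicate 6, mG4H VEH replicate 2 or 4, or CON STZ replicate 1 or 2, and Ppp1r3c alone without replicate 3 of CON STZ or mG4H STZ. The log2 difference lay between 0.28 and 0.50 for Pygb and between -0.66 and -0.36 for Ppp1r3c under these alternatives, within-slide values aside. Gbe1 has no value under the filter that asks for all 24 arrays.

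The mice were not treated as paired by replicate number, and the values do not settle whether they are. Deviations of same-numbered pairs correlated from -0.60 to 0.66, with 16 of 36 pairs over 0.1. Of 24 arrays, 8 correlated best with their own number. With the replicate block the count stayed at 0 in the planned contrasts and at 2 in the averaged one.

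Counts over all genes moved more. Median scaling shifted the median of all genes by -0.11 for STZ in mG4H. The main count of 1117 for STZ in CON ranged from 75 (median scaling) to 2427 (array weights), that of 75 for STZ in mG4H from 0 (groups compared alone) to 253 (array weights), that of 23 for the transgene under vehicle from 8 (median scaling) to 212 (array weights), that of 3 for the transgene under STZ from 0 to 16, that of 0 for the difference from 0 to 6, and that of 2908 on average from 339 (body weight) to 3444 (array weights). With single arrays left out, STZ in mG4H called 17 to 627 genes. Of calls for the transgene under STZ, 66.7% were higher, and both of 2 (100%) with median scaling.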
